A study of Homo sapiens with 5 samples.

Results

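The genes described here are 10 markers of neural and glioma stem cells, SOX2, OLIG2, POU3F2, SALL2, KLF4, MYC, NES, PROM1, CD24 and CD44, read in the human glioma cell line D54. They were taken by name from the 18417 genes that had a row with 1 gene symbol in the deposited array table, and each of the 10 had 1 such row. The study asked how gene expression in D54 differs with and without TIP-1, a small protein made of a single PDZ domain whose gene is TAX1BP3. The control group was 2 arrays of D54 cells transfected with a control shRNA, from independent clones per the series' design text. The TIP-1 shRNA group was 3 arrays of D54 cells transfected with shRNA against TIP-1, each with a different shRNA (shRNAs 1, 2 and 3). No technical replicates were made, and the design text does not say whether the silenced cells were clones. All 5 samples came from the same line, grown overnight after seeding. The p-values therefore reflect only how far arrays of this line vary, with differences of clone, shRNA, culture and array mixed.

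Glioma stem cells are the tumour cells that can renew themselves and seed a new tumour, and many of their markers are shared with normal neural stem cells. SOX2, OLIG2, POU3F2 and SALL2 are transcription factors that together can return differentiated glioblastoma cells to a stem-like state. KLF4 and MYC are transcription factors best known from the reprogramming of body cells to pluripotency. NES encodes nestin, an intermediate filament of neural progenitors, and PROM1 encodes the membrane protein prominin, also called CD133. CD44 is the receptor for hyaluronan and a marker of mesenchymal glioblastoma, and CD24 is a small sugar-coated protein held in the membrane by a lipid anchor.

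CD24 and KLF4 were the only members with a difference of over 1 log2 unit between any pair of arrays. Both were higher in shRNAs 1 and 2 than in the controls and shRNA 3. The stretches of the genome just before their start sites are shown because these members shared that order. Each is the 250 bases upstream of the gene's outermost RefSeq start on assembly GRCh38.p14, minus strand, at chr6:106975628-106975877 for CD24 and chr9:107489770-107490019 for KLF4. They run 5′ to 3′ towards the start site, and capitals mark the GC box, GGGCGG on either strand, a motif bound by SP and KLF family factors.
CD24: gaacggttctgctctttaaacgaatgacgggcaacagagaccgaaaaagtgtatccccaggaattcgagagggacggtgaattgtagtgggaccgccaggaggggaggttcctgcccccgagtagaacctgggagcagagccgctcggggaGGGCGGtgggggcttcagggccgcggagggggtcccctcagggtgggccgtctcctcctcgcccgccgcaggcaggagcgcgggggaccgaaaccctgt
KLF4: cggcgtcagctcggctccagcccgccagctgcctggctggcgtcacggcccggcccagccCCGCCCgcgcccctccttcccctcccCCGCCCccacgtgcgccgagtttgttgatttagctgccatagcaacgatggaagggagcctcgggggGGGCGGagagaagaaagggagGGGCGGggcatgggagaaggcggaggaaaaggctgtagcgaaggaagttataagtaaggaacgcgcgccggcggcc

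Both windows were rich in G and C, at 65.6% for CD24 and 69.2% for KLF4, against a median of 58.0% over the 35116 windows in the RefSeq table. The GC box matched once in the CD24 window and 4 times in the KLF4 window. At least 1 match was found in 42.6% of all windows, and at least 4 in 7.63%. The KLF motif CACCC matched once in the CD24 window, beginning 59 bases upstream of the start, and not in the KLF4 window, and 54.7% of all windows held it. The MYC motif CACGTG matched once in the KLF4 window, beginning 157 bases upstream, and not in the CD24 window, and 6.34% of all windows held it. Neither window held the TATA motif TATAAA, found in 10.7% of all windows, or the NF-Y motif CCAAT, found in 32.0%. The AP-1 motif TGANTCA, found in 6.57%, was also in neither. All motifs were searched on both strands, and the GC box matches overlapped none of the others. A match describes letters only and was not tested as a binding site. The table held windows for 8 of the 10 members.

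The arrays were checked by the silenced gene. The row of TAX1BP3, which also carries the symbol of the read-through transcript P2RX5-TAX1BP3, read 12.05 and 12.10 in the control arrays, then 9.81, 9.61 and 9.55 log2 units in shRNAs 1, 2 and 3. The reduction was therefore of like size in all 3 shRNA arrays, with shRNA 3 the lowest. The log2 difference was -2.42 (SE 0.10, n = 2 and 3, limma adjusted p = 0.011), although it no longer passed when control 1, control 2 or shRNA 2 was omitted (limma adjusted p = 0.386, 0.387 and 0.129). The difference itself stayed as large there, at -2.45, -2.39 and -2.39. It was the only called row of 33297, which is 0.003% (limma, adjusted p under 0.05, either direction). The lower quartile of all rows was 6.45 and 6.44 in the control arrays, then 6.42, 6.40 and 6.35 in shRNAs 1, 2 and 3, so dim rows tended to be lowest in shRNA 3, which bears on the dim members below.

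The level of each member in D54 was described first. The table has no detection call, so rows of 341 olfactory receptor genes, which most cell types outside the nose transcribe little or not at all, served as a guide to the dim end of the scale. Their mean signals had a median of 6.50 log2 units, a 95th percentile of 7.68 and a maximum of 8.55, and statements on single arrays use the same limits taken within that array. Signals of different rows also depend on their probes, so the members are set against this range and not ranked against each other. Of all genes, 65.5% lay above the 95th percentile and 49.6% above the maximum.

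Of the transcription factors that specify a stem-like glioma state, SOX2, OLIG2 and SALL2 stayed at or below the 95th percentile of the olfactory receptor rows in all 5 arrays. SOX2, which keeps neural progenitors undifferentiated, read 7.13 and 7.12 in the control arrays, then 7.18, 7.26 and 7.05 in shRNAs 1, 2 and 3. OLIG2, a factor of the oligodendrocyte lineage, read 7.39 and 7.50 against 7.38, 7.39 and 7.13. SALL2, a zinc finger factor, read 6.85 and 7.20 against 6.70, 7.00 and 7.02. POU3F2, also called BRN2, was brighter, at 8.54 and 8.90 against 8.55, 8.67 and 8.43, above the 95th percentile in all 5 arrays and above the maximum in shRNA 2 alone. By their mean over the arrays, 6 of the 10 members lay above the 95th percentile, beside 65.5% of all genes. CD24 is among the 6 only through shRNAs 1 and 2, since its control mean of 7.50 lay below the limit of 7.68.

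The surface and filament markers were unequal. PROM1 read 5.72 and 5.79 in the control arrays, then 5.77, 5.85 and 5.73 with shRNAs 1, 2 and 3, and 78.9% of the olfactory receptor rows were at least as bright. NES read 7.91 and 8.06 against 7.94, 7.78 and 7.86, above the 95th percentile in all 5 arrays and below the maximum. CD44 read 13.80 and 13.73 against 13.80, 13.80 and 13.79, and 0.61% of all rows were as bright. MYC read 11.19 and 11.18 against 11.21, 11.35 and 11.37. CD44 and MYC were above every olfactory receptor row in all 5 arrays.

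**Figure D1:**
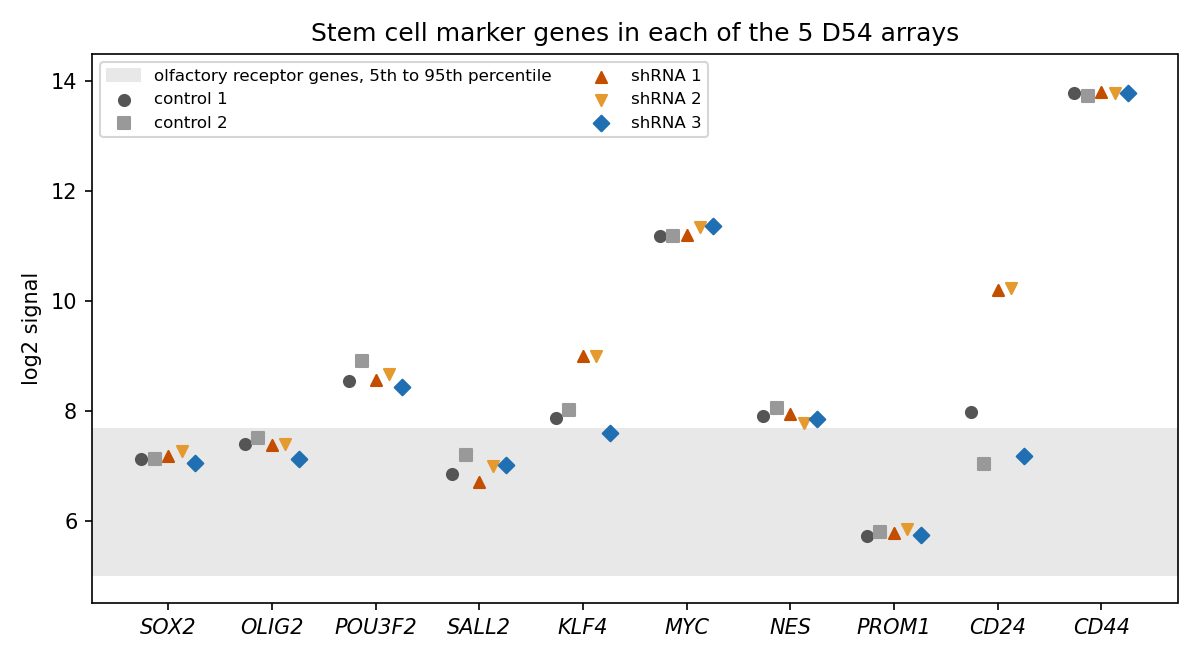
Log2 signal of the 10 marker genes (x axis) in each of the 5 D54 arrays (y axis), with 1 point per array and the grey band marking the 5th to 95th percentile of 341 olfactory receptor genes. CD44 and MYC lie far above the band, PROM1, SOX2, OLIG2 and SALL2 lie inside it, and CD24 and KLF4 are highest in shRNAs 1 and 2.

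None of the 10 members passed the test of TIP-1 shRNA against control shRNA, and their limma adjusted p-values lay between 0.719 and 0.934. None had an unadjusted p under 0.05 either, against 1108 of 18417 genes, or 6.02%. The median difference of the 10 was 0.03 log2 units, with 6 higher and 4 lower, beside a median of -0.01 over all genes, of which 8758 were higher and 9659 lower. Because RNA was taken from whole cultures, fewer cells with a transcript and less transcript per cell cannot be told apart.

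For the 8 members other than CD24 and KLF4, the mean differences were small and their intervals narrow. They lay between -0.17 and 0.13 log2 units, and the widest limits of their limma 95% intervals were -0.51 and 0.34. No single TIP-1 shRNA array of these 8 differed from its control mean by more than 0.32, the value for SALL2 in shRNA 1. Of their 24 shRNA values, 10 lay between the controls, 7 above both and 7 below both. A missed threshold does not show that these genes were unaffected, and the intervals give the sizes in array signal that these arrays leave possible. SOX2, OLIG2, SALL2 and PROM1 stayed within the range of the olfactory receptor rows in all 5 arrays. Their intervals therefore may not bound the change in transcript.

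Among the transcription factors, POU3F2 differed by -0.17 (SE 0.14, 95% interval -0.51 to 0.16). Its controls were 0.36 apart, and a gap as large was found in 7.55% of genes. Only shRNA 3 lay below both controls, and the other shRNA arrays lay between them. Without control 2 the difference was 0.01, and without control 1 it was -0.36.

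OLIG2 differed by -0.14 (SE 0.11, 95% interval -0.42 to 0.13), with shRNA 3 lowest, at 0.32 below the control mean, and by -0.056 without shRNA 3 and -0.088 without control 2. SALL2 differed by -0.12 (SE 0.15), and its controls were 0.35 apart. SALL2 came to 0.06 without control 2 and -0.29 without control 1. SOX2 differed by 0.04 (SE 0.09, 95% interval -0.19 to 0.27), with shRNAs 1 and 2 above both controls and shRNA 3 below both. OLIG2, SALL2 and SOX2 all lie at the dim end, so their differences are between rows that may hold little transcript.

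MYC was the only member whose 3 TIP-1 shRNA arrays all lay on 1 side of both controls. It differed by 0.13 (SE 0.09, 95% interval -0.09 to 0.34, limma adjusted p = 0.746), which is 1.09-fold. The controls were 0.01 apart, shRNA 1 stood 0.03 above their mean, and shRNAs 2 and 3 stood 0.17 and 0.19 above it. All 3 shRNA arrays lay above both controls in 2295 of 18417 genes, or 12.5%, and below both in 2588, or 14.1%. One member of 10 above and 0 below is near these shares. With median centring, SOX2, PROM1 and CD44 also lay above both controls, and with quantile normalization SOX2 did.

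Among the surface and filament markers, NES differed by -0.13 (SE 0.10, 95% interval -0.36 to 0.10), with shRNAs 2 and 3 below both controls and shRNA 1 between them. The NES difference was -0.054 without control 2 and -0.20 without control 1. PROM1, which lies at the dim end and may hold little transcript, differed by 0.03 (95% interval -0.17 to 0.24). CD44 differed by 0.03 (SE 0.08, 95% interval -0.16 to 0.23), an interval of 0.90-fold to 1.17-fold in array signal. CD44 varied least of the 10 over the 5 arrays, with a range of 0.07, and 98.8% of genes had a range as large.

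**Figure D2:**
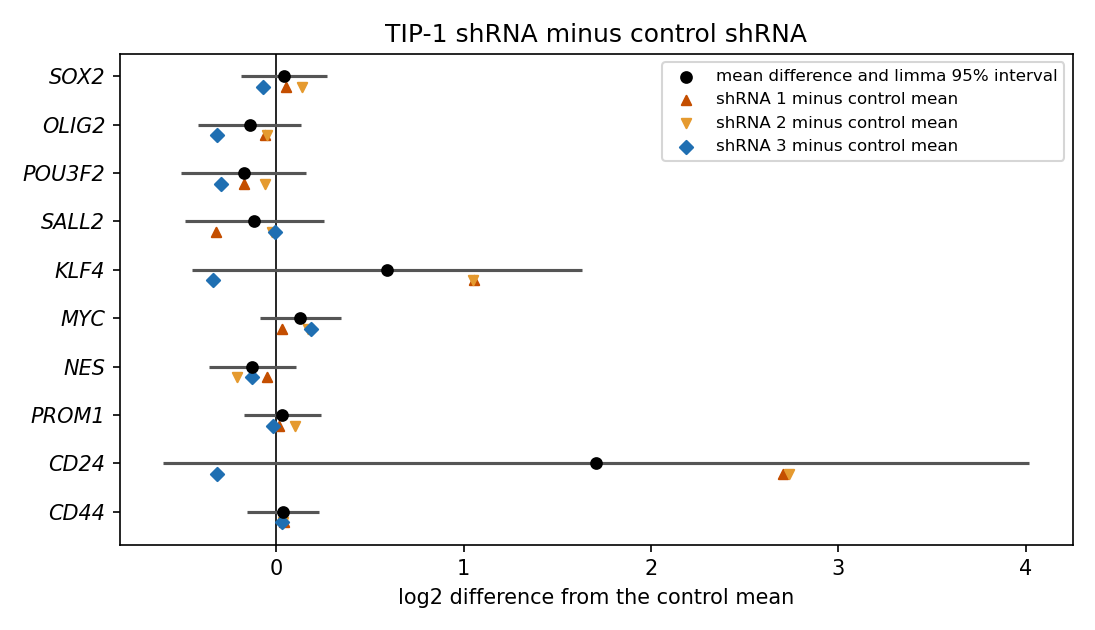
Log2 difference from the control mean (x axis) for each marker gene (y axis), with black points for the mean of the 3 TIP-1 shRNA arrays, lines for the limma 95% interval and coloured points for each shRNA array. All 10 intervals include 0, and for CD24 and KLF4 the points of shRNAs 1 and 2 lie apart from that of shRNA 3.

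CD24 showed the widest spread of the 10. It read 7.98 and 7.02 in controls 1 and 2, 10.21 and 10.24 in shRNAs 1 and 2, and 7.18 in shRNA 3. Both high arrays lay over 2 log2 units above the higher control, and shRNA 3 stood between the controls. In control 2 and shRNA 3 the CD24 row lay within the range of the olfactory receptor rows, in control 1 it was above their 95th percentile, and in shRNAs 1 and 2 it was above their maximum. Against the control mean, the CD24 signal differed by 2.70 log2 units in shRNA 1, 2.73 in shRNA 2 and -0.32 in shRNA 3. No fold is given for CD24, since its low values may be background.

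With shRNA 3 near the controls, the group difference of CD24 had a wide interval. It was 1.71 log2 units (SE 0.95, 95% interval -0.60 to 4.02, limma adjusted p = 0.719). It became 2.72 without shRNA 3 (limma adjusted p = 0.212), 2.19 without control 1, and 1.23, 1.21 and 1.19 without control 2, shRNA 1 and shRNA 2. The controls themselves were 0.96 apart, and 0.527% of genes had a control gap as large. Over all 5 arrays, 13 of 18417 genes, CD24 included, had a range at least as wide as that of CD24. The RefSeq gene table lists 5 CD24 pseudogenes, none with a row of its own, and whether the CD24 probes also read them is not given in the sources used here, so the row is uncertain in this respect.

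KLF4 had the same order at a smaller scale. It read 7.87 and 8.02 in the controls, 9.00 and 8.99 in shRNAs 1 and 2, and 7.60 in shRNA 3. Here shRNA 3 lay below both controls, by 0.26 from the lower one, while shRNAs 1 and 2 lay 0.98 above the higher one. KLF4 was 2.08-fold and 2.07-fold above the control mean in shRNAs 1 and 2 and 0.791-fold in shRNA 3. The group difference was 0.59 (SE 0.43, 95% interval -0.45 to 1.63, limma adjusted p = 0.758). It was 1.05 without shRNA 3 (limma adjusted p = 0.114) and 0.36 without shRNA 1 or shRNA 2. Set against the olfactory receptor rows of the same array, KLF4 was above the 95th percentile in all 5 arrays, narrowly so in shRNA 3 (7.60 against 7.59), and above the maximum in shRNAs 1 and 2.

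The arrays with TIP-1 shRNA were then set against each other for CD24 and KLF4, which were named for this pattern with earlier results of these data known. The values are a description with no test, and shRNA 3 is 1 array. In the fit with array weights, estimated over all rows, shRNA 3 had the lowest weight of the 5 arrays, at 0.40. The weights of shRNAs 1 and 2 were 1.12 and 2.8, and that of each control was 0.89. The CD24 signal was 3.02 and 3.05 log2 units higher in shRNAs 1 and 2 than in shRNA 3, where it lay in the dim range, and shRNAs 1 and 2 differed from each other by 0.03. KLF4 was 2.63-fold and 2.62-fold higher, and shRNAs 1 and 2 were closer than 0.01 apart. On the log2 scale, shRNA 3 minus the mean of shRNAs 1 and 2 was -3.04 for CD24 and -1.39 for KLF4. For the other 8 members it lay between -0.26 (OLIG2) and 0.17 (SALL2).

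Large gaps between shRNA 3 and both other shRNAs were rare over all genes. shRNA 3 was at least 1 log2 unit below both of the others in 43 of 18417 genes, or 0.233%, and at least 1 above both in 143, or 0.776%. By the smaller of the gaps to shRNAs 1 and 2, CD24 ranked 2 and KLF4 ranked 16 among the genes lower in shRNA 3. shRNAs 1 and 2 both stood at least 1 log2 unit above the control mean in 25 genes, or 0.136%, and in 10 of these, or 0.0543%, shRNA 3 was not above the higher control. CD24 and KLF4 were both among the 10, and nothing is read from these shares because the pair was named for the pattern. The TAX1BP3 row read below both controls in shRNA 3 as in shRNAs 1 and 2. Any part of silencing depth in these gaps was not tested. An effect of the shRNA sequence, of the cells that carried it and of the array cannot be told apart with 1 array per shRNA.

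**Figure D3:**
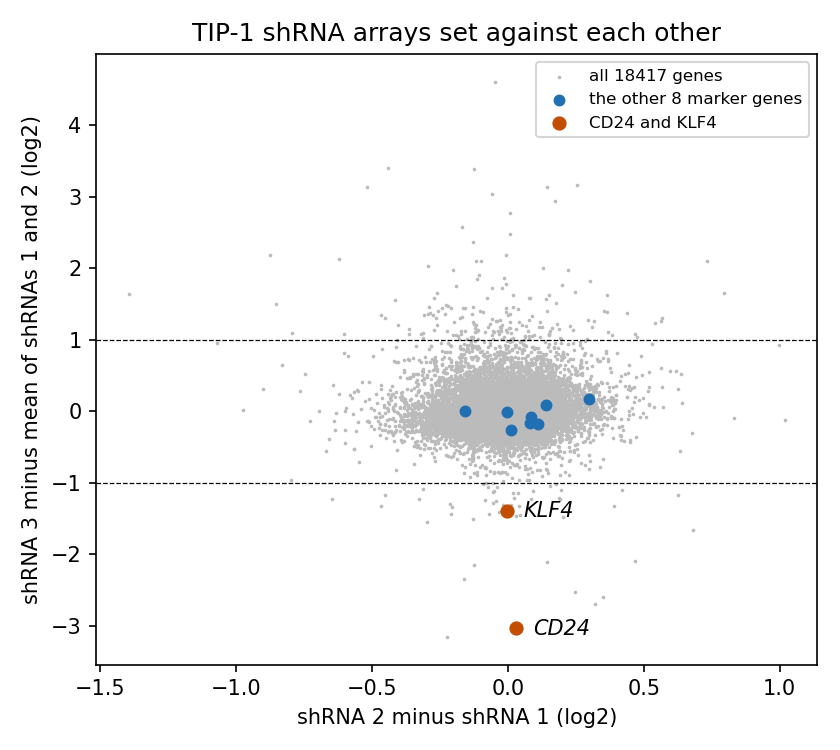
For each of 18417 genes, shRNA 2 minus shRNA 1 (x axis, log2) against shRNA 3 minus the mean of shRNAs 1 and 2 (y axis, log2), with dashed lines at 1 log2 unit either way. CD24 at -3.04 and KLF4 at -1.39 lie below the lower line near 0 on the x axis, and the other 8 marker genes lie between -0.26 and 0.17.

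The genes whose profiles over the 5 arrays lay closest to those of CD24 and KLF4 were found by the root mean square distance between profiles, each minus its own mean. This distance depends on the size of the swings as well as on their order, and 5 arrays are few for such a likeness. For CD24 the closest were IGFL1 (0.392 log2 units), CCSER1 (0.433), the protocadherin PCDH7 (0.506), the metalloprotease inhibitor TIMP3 (0.729) and the collagen-binding integrin chain ITGA11 (0.775). IGFL1, an insulin growth factor-like secreted protein, read 8.79 and 8.82 in the controls, 11.24 and 11.02 in shRNAs 1 and 2, and 7.97 in shRNA 3. KLF4 ranked 15 by its distance to CD24 (0.886).

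For KLF4 the closest were the receptor tyrosine kinase KIT (0.0847 log2 units), the heme oxygenase HMOX1 (0.109), the cytokine TNFSF18 (0.128), the kinesin KIF5C (0.131) and the glycosyltransferase GALNT12 (0.134). KIT read 9.99 and 10.19 in the controls, 10.94 and 10.98 in shRNAs 1 and 2, and 9.63 in shRNA 3. HMOX1 read 11.46 and 11.52, then 12.35 and 12.38, and 10.90 in shRNA 3. In KIT and HMOX1, as in KLF4, shRNAs 1 and 2 lay above both controls and shRNA 3 below both. None of these 10 neighbours passed the test of TIP-1 shRNA against control (limma adjusted p from 0.707 to 0.852).

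**Figure D4:**
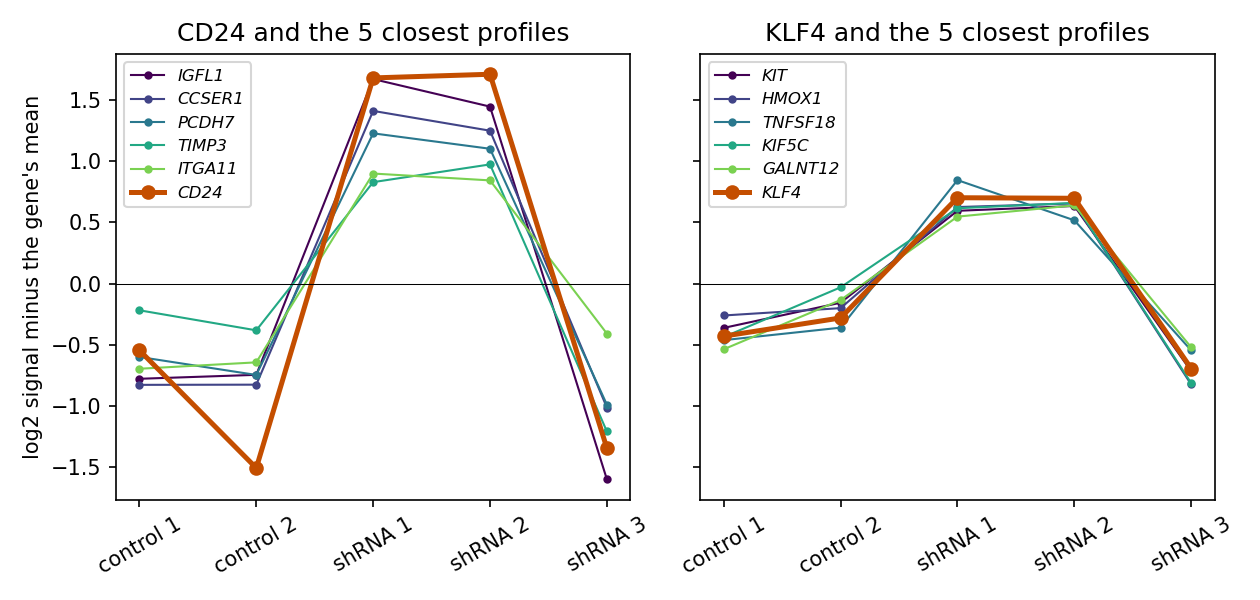
Log2 signal minus the gene's mean over the 5 arrays (y axis) in each array (x axis) for CD24 (left) and KLF4 (right), in thick lines, and the 5 genes with the closest profiles, in thin lines that join values and imply no order. The CD24 neighbours swing by less than CD24 in control 2, where CD24 was 0.96 lower than in control 1, and the KLF4 neighbours lie within 0.134 of KLF4 by root mean square distance.

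Genes around the members were read from 16 lists holding 182 distinct symbols, of which 164 were measured. None of the 164 passed over all rows (limma, adjusted p under 0.05), and 18 had an unadjusted p under 0.05, beside 6.02% of all genes. All 3 shRNA arrays lay on 1 side of both controls in 47 of the 164, beside 12.5% of all genes above and 14.1% below. The median differences of the lists lay between -0.14 and 0.08 log2 units, and 15 of 16 were below 0. They are close to 0, and with median centring several changed sign.

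The paralogs of the members were measured for 15 of 15 genes, with a median difference of -0.10, 3 higher and 12 lower. SALL1, a zinc finger factor related to SALL2, read 9.21 and 9.24 in the control arrays, then 9.80, 9.48 and 9.45 with shRNAs 1, 2 and 3 (difference 0.35, SE 0.13, limma adjusted p = 0.707). SOX3, the closest relative of SOX2 with SOX1, read 10.27 and 10.38 against 10.15, 10.08 and 9.89 (-0.29, SE 0.11). PROM2 read 8.18 and 8.28 against 8.11, 7.94 and 7.72 (-0.31, SE 0.13). SALL1, SOX3 and PROM2 had the smallest p of the list and groups that did not overlap, and none passed. Of the 15 paralogs, 2 lay above both controls in all shRNA arrays and 3 below both, beside 12.5% and 14.1% of all genes.

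Of the neural stem and progenitor factors, 33 of 36 were measured, with a median of -0.03, 15 higher and 18 lower. SOX9, a glial and stem cell factor, read 10.39 and 10.40 in the control arrays, then 10.60, 10.63 and 10.74 with shRNAs 1, 2 and 3 (0.26, SE 0.08). HES1, a target of Notch signalling, read 9.72 and 9.60 against 9.84, 10.17 and 10.02 (0.35, SE 0.12). NFIA, a factor of glial differentiation, read 8.62 and 7.73 against 7.61, 7.33 and 7.32 (-0.75, SE 0.26), with controls 0.89 apart. These had the smallest p of the list, with groups that did not overlap, and each had a limma adjusted p of 0.707. Of the 33, 5 lay above both controls in all shRNA arrays and 5 below both, beside 12.5% and 14.1% of all genes.

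Within that list, 2 of 33 genes had shRNA 3 at least 1 log2 unit below both other shRNAs, as CD24 and KLF4 did, beside 0.233% of all genes. Both names were picked once their values were known. Nothing is read from the count, since the lists were chosen with earlier results known. The Notch ligand JAG1 read 9.00 and 9.15 in the controls, 9.89 and 10.58 in shRNAs 1 and 2 and 8.57 in shRNA 3. GLI2, a transcription factor of Hedgehog signalling, read 8.85 and 8.84, then 9.03 and 9.00, and 7.61 in shRNA 3. JAG1 thus followed the order of KLF4, whereas GLI2 stood near the controls in shRNAs 1 and 2 and apart in shRNA 3. Over all 16 lists, 3 of the 164 measured genes had such a gap. The third was the neuron marker SYT1, at 8.47 and 8.51 in the controls, 8.67 and 8.66 in shRNAs 1 and 2 and 7.35 in shRNA 3.

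Of the other KLF factors, 15 were listed, not the whole family, and all 15 were measured. Their median difference from control was -0.05, with 5 higher and 10 lower. None had shRNA 3 at least 1 log2 unit below both other shRNAs, from which nothing is read, since 0.233% of all genes did. KLF3 came nearest by p, at 9.77 and 9.91 in the control arrays, then 10.23, 10.29 and 10.01 with shRNAs 1, 2 and 3 (0.34, SE 0.12). KLF5 differed by 0.23 (SE 0.10) and KLF15 by -0.39 (SE 0.14). Pluripotency factors were measured for 13 of 16, with a median of -0.14, 3 higher and 10 lower, and ESRRB (-0.25, SE 0.09) and TFCP2L1 (-0.27, SE 0.11) leading with KLF5.

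The network of MYC was also read. Of 11 MYC partners and antagonists, 3 were higher and 8 lower, with a median of -0.05. MXD3, which competes with MYC for its partner MAX, read 9.78 and 9.78 in the control arrays, then 9.77, 9.67 and 9.43 with shRNAs 1, 2 and 3. Of 25 listed MYC target genes 19 were measured, with a median of -0.04, 4 higher and 15 lower. The transferrin receptor TFRC had the smallest p, at 12.24 and 12.20 in the control arrays, then 11.92, 11.53 and 11.88 with shRNAs 1, 2 and 3 (-0.45, SE 0.14, limma adjusted p = 0.707). MYC itself was 0.13 higher, and none of the targets passed.

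Partners of the surface markers were measured next. Of 13 genes for ligands and partners of CD44, 8 were higher and 5 lower, with a median of 0.08. Osteopontin SPP1, a ligand of CD44, read 9.93 and 10.25 in the control arrays, then 8.18, 8.65 and 9.49 with shRNAs 1, 2 and 3 (-1.32, SE 0.36), so it was least reduced in shRNA 3. LAYN, a hyaluronan receptor, differed by 0.40 (SE 0.10) and the sheddase ADAM17 by 0.25 (SE 0.10). Of 6 genes for ligands and partners of CD24, 3 were higher and 3 lower, and the adhesion molecule L1CAM read 10.86 and 10.88 against 11.15, 11.09 and 11.57 (0.41, SE 0.16). Of 10 filament genes and partners of nestin, 3 were higher and 7 lower, and CDK5 (0.17), INA (0.08) and DES (0.18) had the smallest p. VIM, encoding vimentin, with which nestin assembles, read 14.02 and 13.95 against 13.94, 14.02 and 13.84.

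Markers of cell types were set beside these results. By their mean over the 5 arrays, only 1 of 7 astrocyte markers, ALDOC, lay above every olfactory receptor row. GFAP, the filament of astrocytes, read 8.04 and 8.14 in the control arrays, then 8.14, 8.06 and 7.86 with TIP-1 shRNA. By the same mean, none of the 5 endothelial, 6 microglial or 7 neuronal markers lay above every olfactory receptor row. That mean put 2 of 7 oligodendrocyte, 3 of 5 fibroblast and 2 of 5 epithelial markers above every such row. PDGFRB, among the 3 fibroblast markers, read 8.59 and 8.56 in controls 1 and 2, below those arrays' own maxima of 8.66 and 8.96. Within single arrays it was above the maximum in shRNAs 2 and 3 only. The same held for OLIG1, among the 2 oligodendrocyte markers, at 8.53 and 8.72 in controls 1 and 2. CD24 is also carried by epithelial cells. The 5 epithelial markers had a median difference of 0.0055, -0.06 and -0.23 under shRNAs 1, 2 and 3, and the sum of their log2 signals was 41.4 and 41.3 in the control arrays, then 41.2, 40.7 and 39.8 with TIP-1 shRNA. EPCAM had the largest difference of the 5, stayed within the dim range and read 6.75 and 6.75 in the control arrays, then 6.55, 6.22 and 5.88 with TIP-1 shRNA. CDH1, the epithelial cadherin, was also dim and lay above both controls in all 3 shRNA arrays, at 6.74 and 6.64 against 6.77, 6.75 and 6.78. In shRNA 3 the 5 fibroblast markers had a median of 0.27 above the control mean, and the sum of their log2 signals was 40.3 against 38.8 and 37.9. PDGFRB (9.71 against 8.59 and 8.56) and LUM (6.18 against 5.47 and 5.46) were above both controls there, and COL1A1 and DCN were below both. COL1A2, the gene at the median, lay between its unlike controls of 10.60 and 9.81. LUM and DCN were dim, below the olfactory receptor median of 6.39 in shRNA 3. The part of these shifts in the CD24 and KLF4 values of shRNA 3, which were below those of shRNAs 1 and 2, was not tested.

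**Figure D5:**
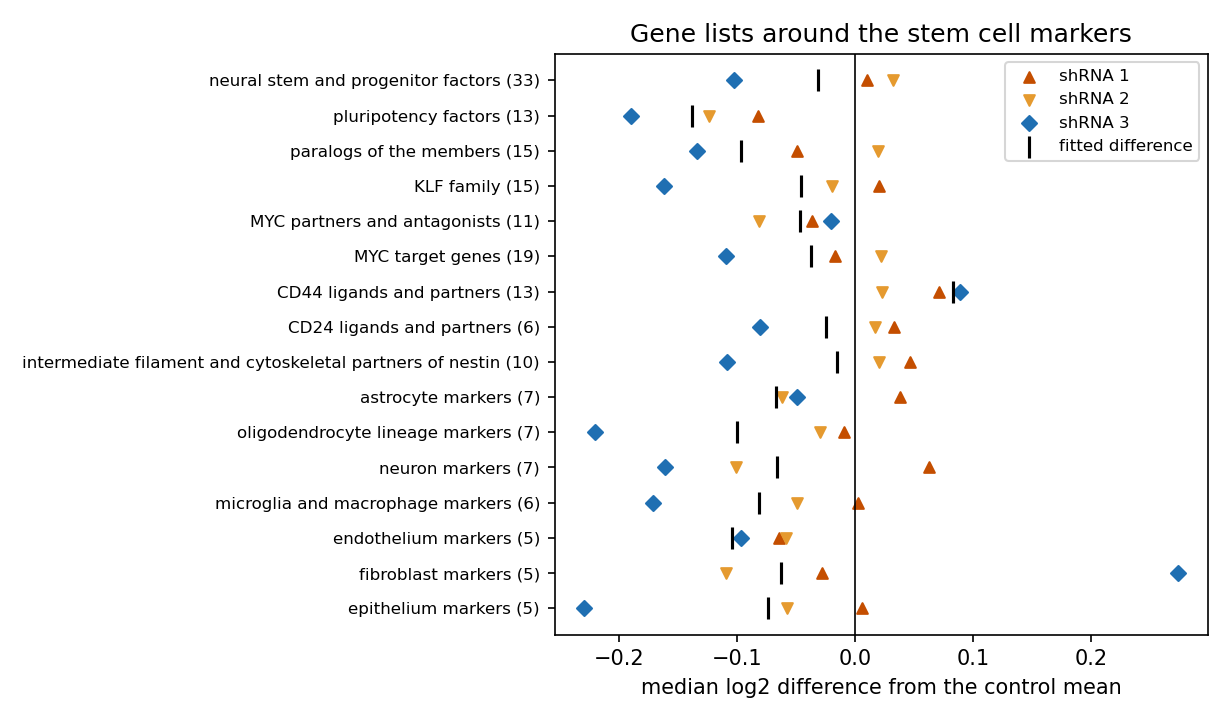
Median log2 difference from the control mean (x axis) for each of 16 gene lists (y axis, with the number of measured genes in brackets), with 1 point per TIP-1 shRNA array and a black bar for the median fitted difference. Most points lie within 0.2 of 0, and the fibroblast markers in shRNA 3 lie highest, at 0.27.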

How the data were processed

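The deposited table holds log2 signals, 1 column per array. Per the series' design text, the authors used Affymetrix's Exon Array Computational Tool on Human Exon ST arrays. No source used here gives the tool's version, its normalization or a genome build. Values ran from 3.27 to 14.7 and were used as deposited, without a pseudocount. The design text names an exon array, whereas the row identifiers matched the annotation of a gene-level array, and this disagreement was not resolved. The annotation can be old: of 33297 rows, 19460 had 1 symbol, 1754 several and 12083 none, and no symbol changed when 19429 were looked up in the RefSeq gene table of GRCh38.p14. The brightest row over all 5 arrays stood for each gene.

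TIP-1 shRNA (3 arrays) was compared with control shRNA (2 arrays) using lmFit and eBayes of limma 3.58.1 (R 4.3.3; two-sided tests), fitted over all rows with Benjamini-Hochberg adjustment and a threshold of 0.05. Differences are TIP-1 shRNA minus control. The number of arrays limits the precision. The fit was tested on simulated data. Cells were harvested for RNA a night after seeding, per the labels' protocols.

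The members, the lists and the shRNA 3 comparison were chosen with earlier results of these data known. Genes were named by rule: TAX1BP3, the 10 members, up to 3 genes per list with the smallest p, paralogs where compared, and the 5 closest profiles for CD24 and for KLF4. VIM, GFAP, ALDOC, COL1A1, LUM, JAG1, GLI2 and SYT1 fall outside it and were chosen after their values were seen. Alternatives were quantile normalization, median centring, bright rows only, a trended robust fit, array weights, another row per gene, a replicate block and leaving out each array.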

Additional observations from a re-analysis of the deposited data

How the results depend on the processing

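No member passed in any alternative: of 115 values for the 10 differences, 109 kept their direction and 6 changed sign, all with 1 array left out, and the smallest limma adjusted p was 0.056. Leaving out 1 array gave -0.0077 to 0.095 for SOX2, -0.0025 to 0.065 for PROM1, -0.36 to 0.0067 for POU3F2, -0.29 to 0.061 for SALL2 and -0.0011 to 0.069 for CD44. The count of called rows, 1 as deposited, was 2 with array weights and 0 to 6 with 1 array left out. The numbers in the titles were not taken as pairs, since same-numbered arrays deviated together at r = 0.0486 and -0.0529. With the replicate block, in which shRNA 3 has no partner and drops out of the difference, 15 rows passed, CD24 differed by 2.72 and KLF4 by 1.05 (limma adjusted p = 0.056 and 0.078), and 1 listed gene passed, SPP1 (-1.68). The count of members on 1 side of both controls, 1 as deposited, was 2 with quantile normalization, 4 with median centring and 2 to 7 with 1 array left out, the highest without control 1. shRNA 3 minus the mean of shRNAs 1 and 2 was -2.97 for CD24 and -1.34 for KLF4 with quantile normalization, and -2.99 and -1.35 with median centring. Rows with shRNA 3 at least 1 log2 unit from both others numbered 245, and 155 among bright rows only, where fewer rows were counted. Median centring moved the median of all genes from -0.01 to 0.05. Of 190 list medians under the alternatives, 169 moved by less than the SD between shRNA arrays. Dim rows could not be called absent.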

Other observations

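The 10 genes with shRNAs 1 and 2 both at least 1 log2 unit above the control mean, and shRNA 3 not above the higher control, were named after their values were seen. In order of the smaller rise they were CD24, IGFL1, CCSER1, PCDH7, TIMP3, NOG, KLF4, ARHGDIB, PITPNC1 and LHB. CCSER1 stayed below the 95th percentile of the olfactory receptor rows in all 5 arrays. TIMP3, which inhibits metalloproteases and is bound to the matrix, read 12.04 and 11.87 in the controls, 13.08 and 13.23 in shRNAs 1 and 2, and 11.05 in shRNA 3. NOG encodes noggin, a secreted antagonist of bone morphogenetic proteins, and read 9.24 and 8.46 in the controls, 9.94 and 10.10 in shRNAs 1 and 2, and 8.97 in shRNA 3. The controls were far apart for ARHGDIB (7.62 and 9.39), PITPNC1 (8.82 and 7.53), LHB (10.47 and 9.47), CD24 (7.98 and 7.02) and NOG, so these 5 entries rest on the mean of unlike controls. At 0.5 log2 units, shRNA 3 was below both other shRNAs in 224 genes (1.22%) and above both in 678 (3.68%). Nothing is read from these shares for CD24 and KLF4, which were named for their pattern.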
